A study of Mus musculus with 11 samples.

Results

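The respiratory chain genes measured here encode the protein subunits of complexes I to V of the mitochondrial inner membrane. They were chosen by symbol alone, as annotated protein-coding genes whose names start with Nduf (A, B, C, S or V series), Uqcr, Cox4 to Cox8 or Atp5, are Sdha, Sdhb, Sdhc or Sdhd, or denote a protein encoded in mitochondrial DNA. This gave 98 genes of the 55414 in the table, of which 85 are nuclear and 13 are mitochondrial. Complex I holds 44 of them (37 nuclear and 7 mitochondrial), complex II holds 4, complex III holds 9 (8 and 1), complex IV holds 21 (18 and 3) and complex V holds 20 (18 and 2). Complexes were assigned by symbol, so Ndufa4, now placed in complex IV, and its relative Ndufa4l2 are counted in complex I throughout. A further 12 pseudogenes or noncoding genes with such symbols were left out, and the naming rule does not reach the subunits Ndufab1, Cyc1, Atpif1 and Usmg5. The symbol Atp5o stands for 2 gene identifiers, so the 98 genes carry 97 symbols.

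RNA was sequenced from mouse CD8+ T cells of the OT-I genotype, whose T cells bear 1 rearranged receptor, a transgene that recognises a peptide of ovalbumin, and every group shares it. Torin libraries (n = 3, numbers 1, 3 and 4) came from cells given Torin, an inhibitor of the kinase mTOR, together with the agonist peptide N4. Stimulated libraries (n = 4) came from cells given N4 with the solvent DMSO, and naive libraries (n = 4) from cells left untreated, all at 12 h. The labels used here give neither the dose of Torin nor the age or sex of the mice, and do not say whether libraries of 1 group came from separate animals, so the p-values measure the spread between these libraries.

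Electrons from NADH enter the chain at complex I and electrons from succinate at complex II, pass through ubiquinone to complex III and through cytochrome c to complex IV, where oxygen is reduced. Complexes I, III and IV pump protons, and complex V, the ATP synthase, uses the gradient to make ATP. Complex II is encoded wholly in the nucleus, while the other complexes combine nuclear subunits with a few made inside mitochondria, so that both genomes contribute to the same enzymes. T cells enlarge their mitochondria after activation, and mTOR is known to promote the production of mitochondrial proteins.

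Library totals lay between 241865667 and 405884097 estimated counts. Levels are given as CPM, counts scaled to a common library size with a correction for composition, or as TPM, which corrects for transcript length, where levels of different genes are set against each other, apart from mitochondrial genes and their near-identical copies. T cell markers Cd3e, Cd3d and Cd8a were present in every group, and 6 of 10 CD8 T cell markers were lower in stimulated than in naive libraries (1 was higher). Summed markers of 8 B cell genes spanned 38.7 to 13240 CPM in Torin, 43.1 to 14390 CPM in stimulated and 221.8 to 47390 CPM in naive libraries, highest in number 4 of each group and there nearly all from the immunoglobulin gene Igkc, while Ms4a1 was at or under 1.37 CPM and Pax5 at or under 0.0514 CPM in all libraries. Summed markers of 8 granulocyte genes spanned 16.3 to 50.6 CPM in Torin, 17.1 to 2068 CPM in stimulated and 134.8 to 8557 CPM in naive libraries, highest in number 2. Those of 8 monocyte and macrophage genes spanned 21.9 to 23.8 CPM in Torin, 12.6 to 100.2 CPM in stimulated and 135 to 2172 CPM in naive libraries, which lay above all others. The lysozyme gene Lyz2 had 3.81, 4.44 and 7.93 CPM in Torin 1, 3 and 4, 11.02, 34.2, 5.44 and 4.26 CPM in stimulated 1 to 4, and 105.6, 1773, 96.7 and 175.6 CPM in naive 1 to 4. Lower in stimulated than in naive libraries were 3 of 8 monocyte and macrophage markers, 2 of 8 granulocyte markers and 2 of 7 B cell markers tested, and no marker of these lists was higher. Of all genes tested, 20.2% were lower and 19.2% higher in that comparison. In Torin against naive libraries, 4, 4 and 1 markers of these lists were lower and none was higher. There, 15.8% of all genes tested were lower and 16.4% higher. The part of these cells in the comparisons with naive libraries was not tested. Results are therefore also given without libraries of number 4 and of number 2. In bulk RNA, fewer cells of a type cannot be told apart from less RNA per cell.

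Most nuclear respiratory chain genes had higher levels in stimulated than in naive libraries. These levels are relative to the other mRNA of each library and do not give amounts per cell. Of 94 genes with enough counts to test, 66 were higher, 3 were lower and 25 did not pass the threshold (edgeR, adjusted p under 0.05), where 39.5% of all genes tested passed, 19.2% higher and 20.2% lower. The median log2 change of the 94 genes was 0.87, against -0.22 over all 22238 genes tested. The other 4 genes, Cox7b2, Cox8b, Cox8c and the second Atp5o identifier, had too few counts. Nuclear genes accounted for 62 of the 66 rises, out of 81 tested, and for all 3 falls. Together the nuclear genes made up 4.97, 4.76 and 4.64% of all counts in Torin 1, 3 and 4. Their share was 6.13, 6.78, 7.60 and 6.24% in stimulated 1 to 4 and 3.49, 4.09, 4.02 and 3.53% in naive 1 to 4. These unscaled shares did not overlap between any of the groups.

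The count of changed genes depended on how libraries were scaled. With library totals alone, 39 genes were higher and 6 lower in stimulated libraries, and the median over all genes moved to -0.71 from -0.22, with 28.5% of calls higher instead of 48.7%. The median of the nuclear genes was then 0.43 instead of 0.93, so it lay above the median of all genes under both scalings. Of the 69 calls, 27 were lost with library totals alone, and 3 of these (Ndufs3, Ndufa8 and Atp5c1) turned to log2 changes of -0.07, -0.11 and -0.06. Sdhb, Sdhc, Sdhd, Uqcrc1, Atp5a1, Atp5g2 and the 4 core subunits of complex I that had passed were among those lost. Without libraries of number 4 there were 62 rises and 2 falls, and without those of number 2 there were 59 rises and 3 falls. Short genes rose more often in general, since 31.5% of coding genes under 1000 nt were higher, against 18.1% of longer ones. Among the nuclear respiratory chain genes, 41 of 54 short genes (75.9%) and 21 of 27 longer ones (77.8%) were higher.

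**Figure D1:**
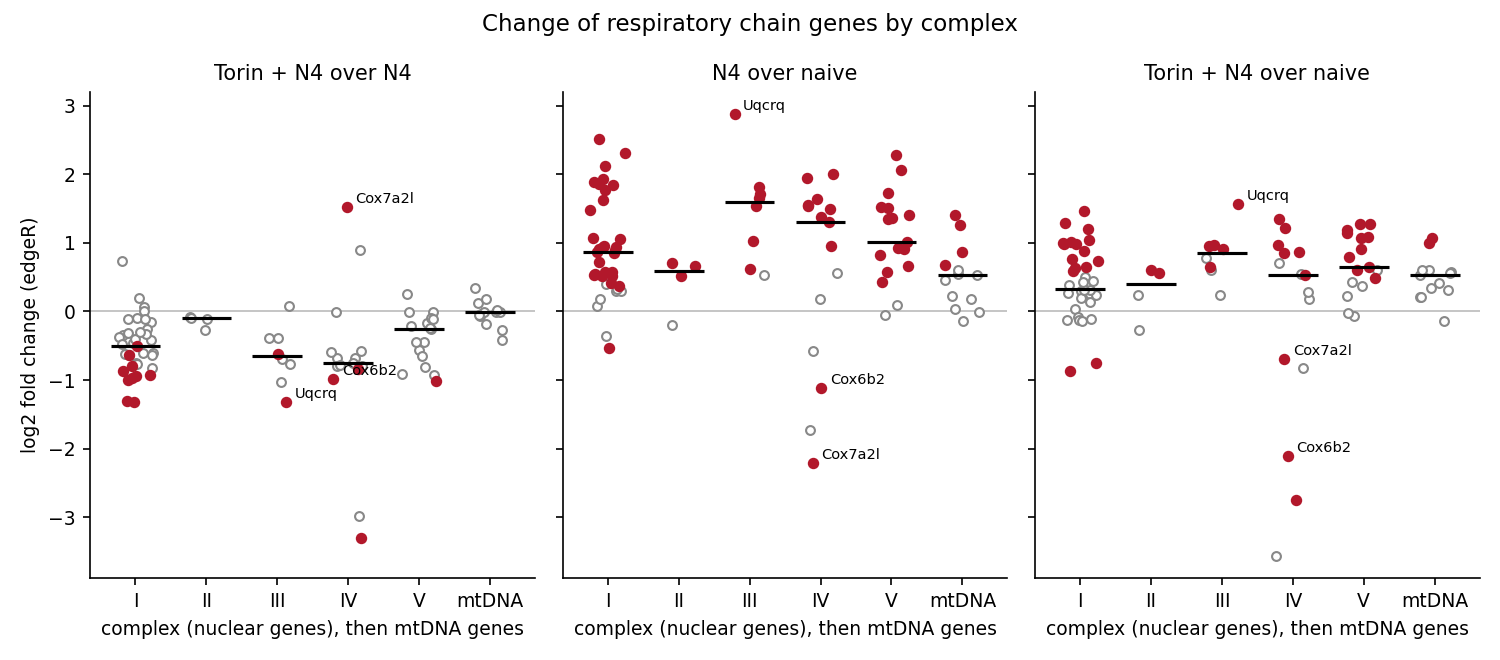
Log2 fold change of each respiratory chain gene (points) in the 3 comparisons, grouped by complex for nuclear genes, with the genes of mitochondrial DNA (mtDNA) last. Filled points passed the edgeR threshold, open points did not, and bars are medians. Ndufa4l2, which is near 0 in all libraries, is not drawn. Most filled points in the middle panel are above 0, and Cox7a2l lies on the opposite side from most of complex IV in all 3 panels.

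Complex III carried the largest median rise, 1.59 on the log2 scale over 8 nuclear genes, of which 7 were higher in stimulated libraries. Uqcrq, a small subunit near the ubiquinone site, had 2060, 2036 and 1829 CPM in Torin 1, 3 and 4, 4031, 4888, 6262 and 4455 CPM in stimulated 1 to 4, and 668.4, 813.1, 624.1 and 570.9 CPM in naive 1 to 4. The 3 groups did not overlap, and Torin libraries lay between the other 2 groups. Its 7.34-fold rise in stimulated over naive libraries (log2 2.88 ± 0.17 SE, adjusted p = 6.09e-06) was the largest of any respiratory chain gene. Uqcrfs1, the Rieske iron-sulphur protein that hands electrons to cytochrome c1, rose 2.90-fold (adjusted p = 1.03e-05). The small subunits Uqcrb, Uqcr10 and Uqcr11 rose 3.53-fold, 3.13-fold and 3.28-fold. Of the core proteins, Uqcrc1 rose 2.05-fold (adjusted p = 0.000693) while Uqcrc2 was at 1.44 times the naive level without passing the threshold (adjusted p = 0.0687). The Uqcrc1 call was lost under library totals alone (adjusted p = 0.0686).

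In complex I, 28 of 37 nuclear genes were higher and 1 was lower, with a median log2 change of 0.86. The catalytic core that carries the flavin and the iron-sulphur clusters is encoded by 7 of these genes, and 4 of the 7 rose, with a median of 0.42. The accessory subunits rose in 24 of 30 cases, with a median of 0.93. Ndufb6, an accessory subunit of the membrane arm, had 792.6, 655.5 and 734.2 CPM in Torin 1, 3 and 4, 1712, 1678, 2228 and 1577 CPM in stimulated 1 to 4, and 305.6, 392.4, 292.2 and 272.8 CPM in naive 1 to 4. Every stimulated library lay above every Torin library, and every Torin library above every naive one. Its rise over naive libraries was 5.70-fold (log2 2.51 ± 0.17 SE, adjusted p = 6.5e-06). Ndufb2, from the same arm, had 974.0, 747.2 and 719.2 CPM in Torin 1, 3 and 4, 1978, 1797, 2357 and 2003 CPM in stimulated 1 to 4, and 360.6, 500, 395.2 and 386.1 CPM in naive 1 to 4. The order of groups was the same, without overlap, and the rise was 4.96-fold (log2 2.31 ± 0.16 SE, adjusted p = 6.73e-06). Ndufc2 rose 4.34-fold, Ndufs6 rose 3.82-fold and Ndufa12 rose 3.71-fold.

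Among the core subunits, Ndufs1, which carries several iron-sulphur clusters, rose 1.80-fold (adjusted p = 0.0194), Ndufs8 rose 1.93-fold (adjusted p = 0.00053), Ndufs3 rose 1.33-fold (adjusted p = 0.00761) and Ndufv1, which binds NADH, rose 1.45-fold (adjusted p = 0.0391). All 4 calls were lost under library totals alone. The Ndufs1 call was also lost without naive 2, without naive 3 or without all libraries of number 2 or of number 4, and the Ndufv1 call was lost in 8 of 11 fits that left out 1 library. Ndufv2 did not pass, with a log2 change of 0.08 that turned to -0.42 under library totals alone. Ndufs7, which bears the last iron-sulphur cluster before ubiquinone, had 144.6, 155.2, 292.6 and 143.5 CPM in stimulated 1 to 4 and 250.5, 202.5, 285.0 and 200.3 CPM in naive 1 to 4. Stimulated 3 lay above every naive library, and the other stimulated libraries lay below all naive ones. Its log2 change of -0.35 ± 0.26 (SE) had an adjusted p of 0.320, of 0.0498 with libraries paired by number and of 0.0104 under library totals alone (log2 -0.89). Ndufb10 was the 1 complex I gene that fell, at 112.3, 120.6, 159.2 and 110.0 CPM in stimulated 1 to 4, against 190.9, 165.6, 203.8 and 165.9 CPM in naive 1 to 4 (0.69-fold, adjusted p = 0.0156). The Ndufb10 call was lost without all libraries of number 4. Pairing by number brought Ndufb7 past the threshold (log2 0.32, adjusted p = 0.0496 with pairing), although its change turned to -0.19 under library totals alone.

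Complex II, which links the chain to the citric acid cycle, showed smaller changes and 3 of its 4 genes rose. Sdhb, the iron-sulphur subunit, rose 1.63-fold (adjusted p = 0.00338), and the membrane anchors Sdhc and Sdhd rose 1.43-fold (adjusted p = 0.00916) and 1.58-fold (adjusted p = 0.000589). Those 3 calls did not hold under library totals alone. Sdha, the flavoprotein that oxidises succinate, had 64.5, 51.9 and 79.0 CPM in Torin 1, 3 and 4, 85.1, 72.9, 50.4 and 67.0 CPM in stimulated 1 to 4, and 101.7, 70.6, 63.3 and 79.4 CPM in naive 1 to 4. Its 3 groups overlapped throughout (stimulated against naive log2 -0.19, adjusted p = 0.495). Summed per transcript length, complex II lay far below the nuclear genes of complex IV, which number 18 against 4. Levels per gene were not compared. The 4 genes of complex II summed to 427 to 480 TPM in Torin, 375 to 502 TPM in stimulated and 333 to 571 TPM in naive libraries. The nuclear complex IV genes summed to 17292 to 18782, 22674 to 27344 and 12665 to 17534 TPM in the same groups.

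Among nuclear complex IV genes, 9 of 15 tested were higher in stimulated libraries and 2 were lower, with a median log2 change of 1.298. Cox7b rose 4.01-fold, Cox7c rose 3.85-fold, Cox7a2 rose 3.12-fold (adjusted p = 0.000563), Cox5a rose 2.91-fold (adjusted p = 3.69e-05), Cox5b rose 2.59-fold (adjusted p = 8.24e-05) and Cox6a1 rose 1.94-fold (adjusted p = 0.00108). These are ubiquitous subunits that surround the catalytic core made in mitochondria. Cox4i1, the largest nuclear subunit and the one that binds ATP as an inhibitor, stayed between 965.1 and 1310 CPM in Torin, between 1008 and 1202 CPM in stimulated and between 911.9 and 1112 CPM in naive libraries. Its log2 change of 0.18 in stimulated over naive libraries did not pass (adjusted p = 0.308) and turned to -0.30 under library totals alone.

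Cox7a2l went the other way. It encodes SCAF1, a relative of Cox7a2 that joins complex III to complex IV in supercomplexes. It had 183.3, 207.2 and 180.0 CPM in Torin 1, 3 and 4, 67.5, 70.1, 73.0 and 54.5 CPM in stimulated 1 to 4, and 291.3, 319.0, 341.4 and 274.7 CPM in naive 1 to 4. The groups did not overlap, and the order was the mirror image of that of Uqcrq. Stimulated libraries held 0.22 times the naive level (log2 -2.21 ± 0.13 SE, adjusted p = 6.09e-06), the largest fall of any respiratory chain gene. Nearly all counts of the gene came from transcript Cox7a2l-201 (98.8% in stimulated and 99.1% in naive libraries). The TPM ratio of Cox7a2 to Cox7a2l was 12.4, 9.61 and 10.6 in Torin 1, 3 and 4. It was 34.1, 56.2, 72.1 and 50.6 in stimulated 1 to 4, and 2.64, 4.47, 3.54 and 4.28 in naive 1 to 4. Cox6b2, known from testis, also fell but at a low level, with 4.73 to 8.50 CPM in stimulated and 9.77 to 16.9 CPM in naive libraries (0.46-fold, adjusted p = 0.00227).

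Other complex IV isoforms that are restricted to certain tissues were near 0. Cox4i2, known from lung, was at or under 0.65 CPM in all libraries, and Cox7b2, Cox8b and Cox8c had no counts in any. Cox6a2, a muscle isoform, was at or under 0.42 CPM in Torin and 2.45 CPM in stimulated libraries, and reached 6.98 CPM in naive 4. Cox7a1, another muscle isoform, was at or under 0.33 CPM in Torin, between 2.301 and 2.605 CPM in stimulated and between 0.63 and 2.73 CPM in naive libraries. Ndufa4l2, a hypoxia-induced relative of Ndufa4, was at or under 0.18 CPM everywhere.

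Complex V rose in 15 of 17 nuclear genes tested, with none lower and a median log2 change of 1.01. All 5 subunits of the F1 head, which forms ATP, were higher, among them Atp5a1 (1.77-fold, adjusted p = 0.001) and the catalytic Atp5b (2.53-fold, adjusted p = 0.000209). Under library totals alone the calls of Atp5a1, Atp5c1 and Atp5d in that head were lost (adjusted p = 0.207, 0.790 and 0.136). The small membrane subunits Atp5j2, Atp5k, Atp5l and Atp5mpl all rose, Atp5mpl by 4.19-fold. The peripheral stalk gene Atp5h and the distantly related Atp5s did not pass, with log2 changes of -0.06 and 0.09, while library totals alone gave Atp5h -0.55 (adjusted p = 0.00412) and Atp5s -0.38 (adjusted p = 0.255). The ring that turns as protons pass is built from 1 protein encoded by 3 genes, Atp5g1, Atp5g2 and Atp5g3, whose mature products are the same. Atp5g1 had 2034, 2023 and 1586 CPM in Torin 1, 3 and 4, 3088, 3455, 5444 and 3156 CPM in stimulated 1 to 4, and 636.0, 1027, 767.4 and 685.3 CPM in naive 1 to 4. It rose 4.86-fold (log2 2.28 ± 0.23 SE, adjusted p = 2.74e-05), while Atp5g3 rose 2.58-fold (adjusted p = 3.33e-05) and Atp5g2 rose 1.91-fold (adjusted p = 0.0287). The Atp5g2 call was lost without stimulated 2, stimulated 3, naive 1 or naive 3, and reads of Atp5g2 can be shared with the pseudogenes Gm10175 and Gm10231, which match it at 100% identity.

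Per transcript length, Atp5g1 supplied 43.7, 42.2 and 38.6% of the summed TPM of the 3 c-ring genes in Torin 1, 3 and 4. It supplied 61.6, 59.4, 61.9 and 58.0% in stimulated 1 to 4 and 38.2, 37.0, 28.1 and 28.4% in naive 1 to 4. Stimulated libraries stood above all others, and Torin 4 lay just above naive 1. By counts, without the correction for length, Torin 4 (44.5%) lay within the naive range (37.7 to 45.1%). The TPM share of Atp5g2 was 18.1 to 22.0% in Torin, 6.43 to 10.9% in stimulated and 15.2 to 22.2% in naive libraries.

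**Figure D2:**
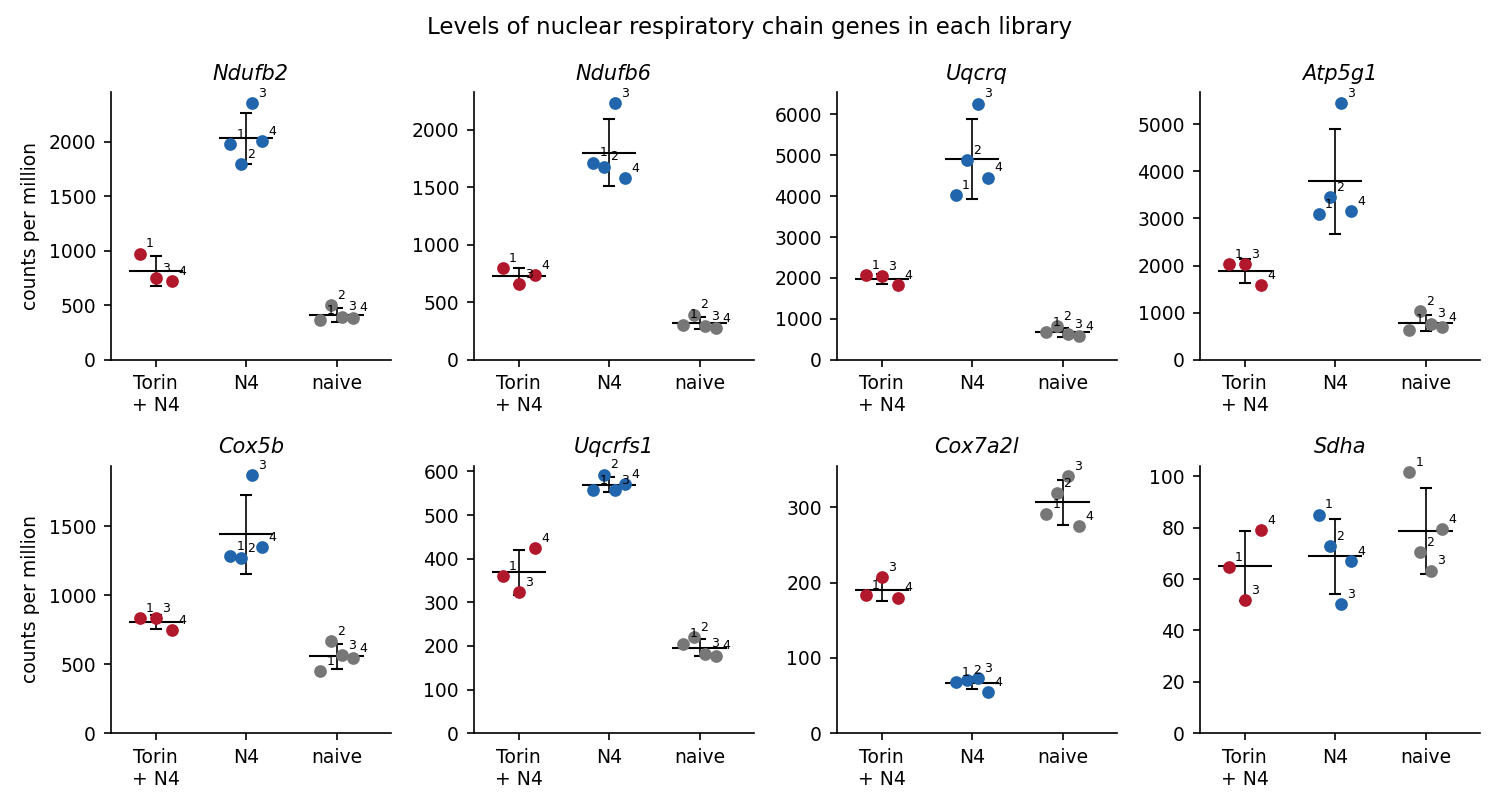
Levels of 8 nuclear genes in each library, in CPM, with replicate numbers beside the points, lines at group means and bars of 1 SD (Torin + N4 n = 3, N4 n = 4, naive n = 4). Torin libraries lie between the others for Ndufb2, Ndufb6, Uqcrq, Atp5g1, Cox5b, Uqcrfs1 and Cox7a2l, whose order is inverted, and Sdha overlaps throughout.

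The 13 genes of mitochondrial DNA had a smaller median change than the nuclear ones in stimulated against naive libraries. In that comparison, 4 were higher and none was lower (against 19.2% higher and 20.2% lower over all genes). The median log2 change of the 13 was 0.54, and it fell to 0.05 under library totals alone. These 4 were mt-Nd1, mt-Nd3, mt-Co2 and mt-Co3. mt-Nd1, a membrane subunit of complex I next to the ubiquinone site, had 2198, 1471 and 3080 CPM in Torin 1, 3 and 4, 2131, 3561, 3186 and 3092 CPM in stimulated 1 to 4, and 927.3, 1458, 990.0 and 1150 CPM in naive 1 to 4. Torin and stimulated libraries overlapped, and both lay above all naive libraries. Its rise was 2.65-fold in stimulated over naive libraries (log2 1.40 ± 0.25 SE, adjusted p = 0.000984), and this was the 1 mitochondrial call that held under library totals alone. mt-Nd3 rose 2.38-fold (adjusted p = 0.00979), mt-Co3 rose 1.83-fold (adjusted p = 0.0146) and mt-Co2 rose 1.59-fold (adjusted p = 0.038). The mt-Co2 call was lost in 7 of 11 fits that left out 1 library.

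The other 9 did not pass. mt-Cytb, the cytochrome b of complex III, had 2257, 1595 and 3098 CPM in Torin 1, 3 and 4, 1315, 1961, 1887 and 2130 CPM in stimulated 1 to 4, and 1562, 2306, 1615 and 1855 CPM in naive 1 to 4. mt-Co1, the catalytic subunit of complex IV, had 3782, 2908 and 4378 CPM in Torin 1, 3 and 4, 2721, 5212, 3420 and 3452 CPM in stimulated 1 to 4, and 3056, 5124, 3710 and 4415 CPM in naive 1 to 4. In both, all 3 groups overlapped, with log2 changes of -0.01 and -0.14 in stimulated over naive libraries. Under library totals alone mt-Co1 was lower (log2 -0.61, adjusted p = 0.0391). The ATP synthase genes mt-Atp6 and mt-Atp8 had log2 changes of 0.54 and 0.60 (adjusted p = 0.129 and 0.105). For complex I, mt-Nd4l was at 0.54 (adjusted p = 0.114, and 0.0412 with pairing by number) and mt-Nd5 at 0.47. Those of mt-Nd2, mt-Nd4 and mt-Nd6 were 0.19, 0.23 and 0.03, and these and mt-Nd5 turned negative under library totals alone (-0.30, -0.25, -0.45 and -0.03). Both mitochondrial ribosomal RNAs, which come from the same long precursors, did not pass either.

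**Figure D3:**
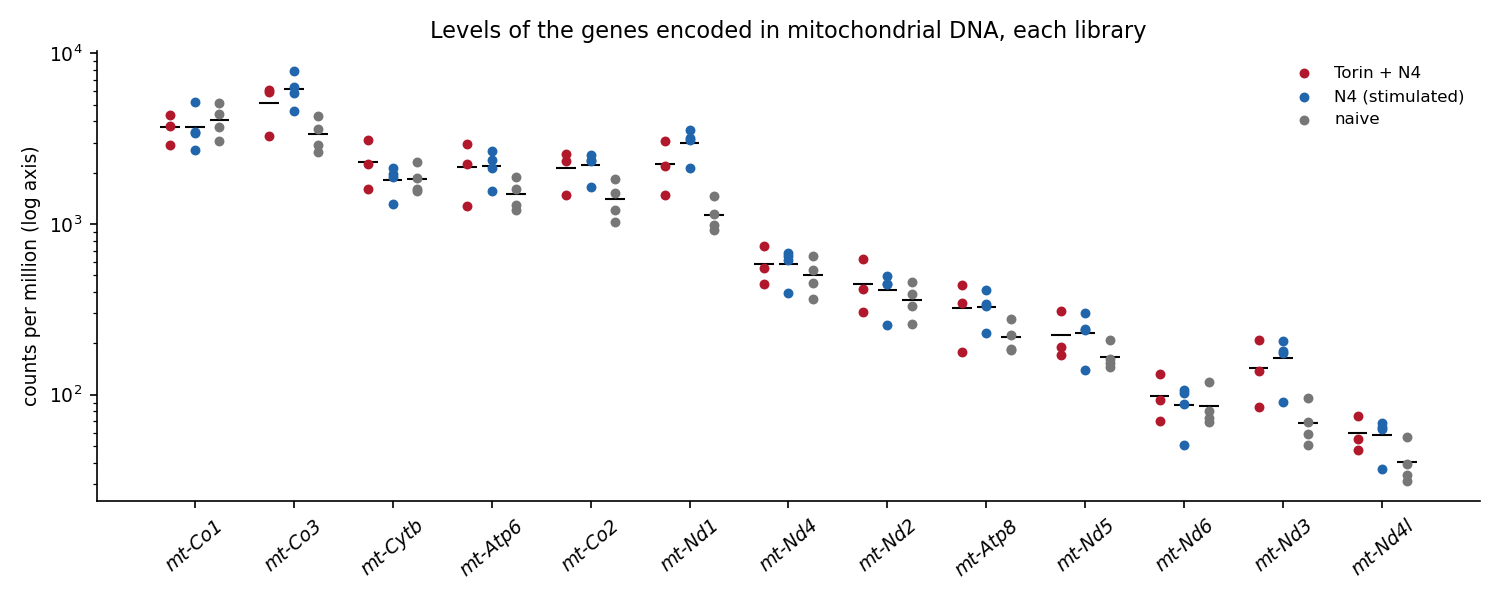
Levels of the 13 genes of mitochondrial DNA in each library, in CPM on a log axis, with lines at group means. Torin and stimulated libraries lie above the naive ones for mt-Nd1, while the 3 groups overlap for mt-Co1 and mt-Cytb.

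Several mitochondrial genes have near-identical copies in the nuclear genome, and their reads may have been split. mt-Co3 averaged 5106, 6163 and 3366 CPM in Torin, stimulated and naive libraries, and its copy Gm28437 (100% identity over 783 nt) averaged 5206, 6288 and 3423 CPM. mt-Co2 and Gm28661, mt-Atp6 and Gm10925, mt-Nd3 and Gm28438, and mt-Nd4l and Gm10222 were likewise paired at similar levels. mt-Co1 averaged 3689, 3701 and 4076 CPM in Torin, stimulated and naive libraries. Its copy Gm29216 (99.8% identity over 483 nt) averaged 1694, 1744 and 1976 CPM. mt-Nd4 averaged 580.6, 585.7 and 500.3 CPM in the same groups, and Gm28439 (100% identity over 876 nt) averaged 126.4, 115.3 and 93.4 CPM. The levels of these genes are therefore uncertain, although adding the copies to their members left 66 rises and 3 falls in stimulated against naive libraries. mt-Nd1 and mt-Cytb had no such copy.

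The ratio of summed nuclear to summed mitochondrial TPM was 3.37, 5.13 and 2.50 in Torin 1, 3 and 4. It was 5.49, 3.95, 6.40 and 4.402 in stimulated 1 to 4 and 2.93, 2.66, 3.55 and 2.76 in naive 1 to 4. All stimulated libraries lay above all naive ones, and Torin libraries spanned both. The mitochondrial genes made up 1.26 to 2.41% of all counts in Torin, 1.46 to 2.28% in stimulated and 1.56 to 2.13% in naive libraries, so that their share overlapped in all groups while the nuclear share did not. Counts given to the near-identical copies are left out of the mitochondrial sums. The ratio and the share with copies added were not computed. Per length, the most abundant mitochondrial mRNA was mt-Co3, at 5363, 5684 and 4703 TPM in Torin, stimulated and naive libraries, and the most abundant nuclear one was Cox8a, at 3467, 5093 and 3162 TPM.

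**Figure D4:**
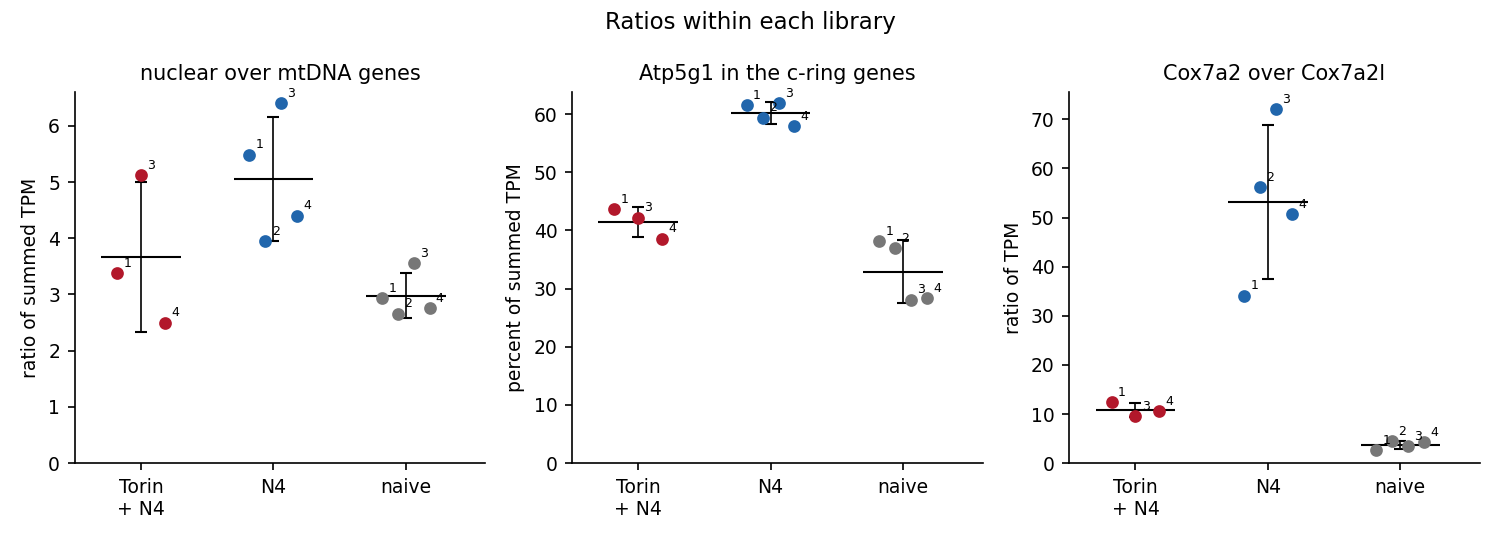
Ratios within each library, with replicate numbers, lines at group means and bars of 1 SD. From left to right are summed nuclear over summed mitochondrial TPM, the share of Atp5g1 in the summed TPM of the 3 c-ring genes, and Cox7a2 over Cox7a2l in TPM. The Cox7a2 ratio lies between 9.61 and 12.4 in Torin, at or above 34.1 in stimulated and at or below 4.47 in naive libraries.

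The upstream sequences of Ndufb6, Ndufb2 and Atp5g1, which rose together, and of Cox7a2l, which went against the rest, are shown. Ndufs6 was added because it had the largest rise among members with a nuclear respiratory factor 1 word before the start. Its match to that word was therefore fixed by the choice. Each sequence is the 250 bases before the start site in RefSeq (GRCm38.p6), written 5′ to 3′ in the direction of the gene. Capitals mark matches, on either strand, to the words searched.
Ndufb6 (chr4:40279422-40279671, minus strand): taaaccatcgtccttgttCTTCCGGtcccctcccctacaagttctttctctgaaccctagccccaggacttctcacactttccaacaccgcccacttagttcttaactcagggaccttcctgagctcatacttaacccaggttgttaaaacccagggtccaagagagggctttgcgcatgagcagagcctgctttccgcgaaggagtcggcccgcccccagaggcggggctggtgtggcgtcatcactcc
Ndufb2 (chr6:39592315-39592564, plus strand): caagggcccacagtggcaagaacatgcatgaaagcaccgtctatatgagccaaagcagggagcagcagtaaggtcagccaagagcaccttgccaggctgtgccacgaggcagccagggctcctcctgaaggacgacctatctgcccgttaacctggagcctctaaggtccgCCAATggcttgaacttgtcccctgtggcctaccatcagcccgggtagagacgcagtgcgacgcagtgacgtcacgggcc
Atp5g1 (chr11:96075632-96075881, minus strand): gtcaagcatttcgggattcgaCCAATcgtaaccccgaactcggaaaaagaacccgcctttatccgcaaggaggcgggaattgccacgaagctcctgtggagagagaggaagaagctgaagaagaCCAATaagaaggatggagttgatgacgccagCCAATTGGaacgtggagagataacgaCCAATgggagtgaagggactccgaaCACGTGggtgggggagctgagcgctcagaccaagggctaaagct
Ndufs6 (chr13:73328483-73328732, minus strand): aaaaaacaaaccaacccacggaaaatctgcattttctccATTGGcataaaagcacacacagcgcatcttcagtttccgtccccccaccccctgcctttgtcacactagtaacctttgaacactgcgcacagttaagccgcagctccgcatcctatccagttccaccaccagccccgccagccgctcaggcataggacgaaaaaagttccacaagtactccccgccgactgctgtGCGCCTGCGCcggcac
Cox7a2l (chr17:83514334-83514583, minus strand): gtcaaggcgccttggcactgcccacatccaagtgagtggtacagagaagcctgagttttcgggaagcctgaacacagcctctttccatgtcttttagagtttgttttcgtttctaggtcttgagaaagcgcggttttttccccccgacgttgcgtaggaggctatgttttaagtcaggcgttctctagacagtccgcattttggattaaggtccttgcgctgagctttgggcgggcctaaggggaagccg
The ETS family word was CCGGAAG. The YY1 word was AAGATGG. The E-box was CACGTG, and the CCAAT box was its own 5 letters. The word for nuclear respiratory factor 1 was GCGCA and GCGC with any 1 base between them. In the sequences shown, matches do not overlap, except a pair of CCAAT words on opposite strands in Atp5g1. They were searched in 300 bases, 250 before and 50 after the start, for the 66 of 84 nuclear symbols found in the table and for all 27025 genes in it. The nuclear respiratory factor 1 word, which is present in the Ndufs6 sequence 16 bases before the start, was in 16 of 66 promoters of nuclear members (24.2%), against 4.78% of all. The ETS word was in 15 (22.7%), against 9.12%, the YY1 word in 9 (13.6%), against 6.48%, the E-box in 5 (7.58%), against 7.24%, and the CCAAT word in 29 (43.9%), against 37.9%. Within the nuclear members, the nuclear respiratory factor 1 word was in 13 of the 52 promoters of genes that rose in stimulated cells and in 3 of the 14 others. The E-box was in 5 of the 52, including Atp5g1, and in 0 of the 14. The Cox7a2l sequence holds none of the 5 words.

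A number of nuclear respiratory chain genes had lower levels, relative to the other mRNA of each library, in Torin than in stimulated libraries. In Torin against stimulated libraries, 16 of 94 genes were lower, 1 was higher and 77 did not pass, where 4.62% of all genes tested passed, 2.30% lower and 2.32% higher. The lower genes were nuclear in every case. By symbol, 10 of 37 nuclear genes tested in complex I were lower (Ndufa4 among them). So were 2 of 8 in complex III, 3 of 15 in complex IV and 1 of 17 in complex V. None of the 4 genes of complex II was lower. By complex, the median log2 change of nuclear genes was -0.496 in complex I, -0.655 in complex III and -0.755 in complex IV. It was -0.101 in complex II and -0.261 in complex V. The median log2 change was -0.57 over the nuclear genes, against -0.02 over all genes. With library totals alone it was -0.41, against 0.11 over all genes, with 67.6% of calls over all genes higher instead of 50.1%. Coding genes under 1000 nt were lower in 7.43% of cases, against 10 of 54 short nuclear genes of the chain (18.5%). Coding genes of 1000 nt or more were lower in 2.08% and higher in 3.14% of cases, against 6 and 1 of 27 nuclear genes of the chain. None of the 13 mitochondrial genes passed in edgeR, with log2 changes between -0.41 and 0.35, and 0 passed at an unadjusted p under 0.05 or in DESeq2. The same 3 counts were 0 for the 4 genes of complex II.

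These calls rested on few libraries. With libraries paired by number, 10 genes were lower and 2 were higher. Leaving out Torin 1 left 4 lower genes, leaving out Torin 3 left 3 and leaving out Torin 4 left 6. Leaving out stimulated 2 or stimulated 4 left 6 in each case, and leaving out naive 1 gave 24. The count was 4 without all libraries of number 2 and 0 without all libraries of number 4, by edgeR at an adjusted p under 0.05. Under library totals alone the calls of Uqcrfs1, Ndufa9, Ndufa8 and Cox6b2 were lost and 8 others were gained. Of the 17 calls, only that of Cox7a2l held in every alternative, while those of Ndufb2, Ndufb6 and Uqcrq were lost only without all libraries of number 4, which carry the Igkc counts. The part of those counts in the loss was not tested.

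Cox7a2l was the gene that was higher, at 2.87 times the stimulated level in Torin libraries (log2 1.52 ± 0.14 SE, adjusted p = 0.000944), higher in 3 of 3 libraries than any stimulated one. Uqcrq was lower at 0.40 times the stimulated level (log2 -1.31 ± 0.18 SE, adjusted p = 0.00585), and so were Ndufb2 (0.40 times, log2 -1.32 ± 0.17 SE, adjusted p = 0.00576) and Ndufb6 (0.40 times, log2 -1.31 ± 0.18 SE, adjusted p = 0.00585). All Torin libraries lay below all stimulated libraries for the 16 lower genes, which were picked by a test on these same values. The same held for genes that did not pass, such as Atp5k, Cox5a and Cox8a, and the share over all genes was not computed. Among accessory subunits of complex I, Ndufb11 (0.50 times), Ndufb4 (0.51 times), Ndufa9 (0.65 times) and, in the arm that takes up NADH, Ndufs6, Ndufs4 and Ndufv3 (0.52, 0.55 and 0.52 times) were lower. Ndufa8 (0.71 times) and Ndufa4 (0.58 times), which was first purified with complex I and is now placed in complex IV, were also lower. Ndufa4, Ndufa8, Ndufs4, Ndufs6, Ndufv3 and Cox6b2 did not pass with pairing by number (adjusted p = 0.0826, 0.0641, 0.0576, 0.0554, 0.0769 and 0.103). Reads of Ndufb4 can be shared with Ndufb4c, which matches it at 100% identity.

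Outside complex I, Uqcrfs1 had 360.6, 322.8 and 424.6 CPM in Torin 1, 3 and 4, against 556.9, 592.8, 557.4 and 570.3 CPM in stimulated 1 to 4 (0.65 times, adjusted p = 0.0277). Cox5b, a zinc-binding subunit of complex IV, had 835.7, 831.8 and 748.5 CPM in Torin 1, 3 and 4, against 1280, 1267, 1868 and 1346 CPM in stimulated 1 to 4 (0.56 times, adjusted p = 0.0283). Atp5g1 was lower at 0.50 times the stimulated level (log2 -1.01 ± 0.24 SE, adjusted p = 0.041), while Atp5g2 was 1.19 times the stimulated level without passing (adjusted p = 0.741). Neighbouring subunits came close without passing, such as Cox5a (adjusted p = 0.0539), Atp5l (adjusted p = 0.054), Atp5g3 (adjusted p = 0.0625) and Atp5mpl (adjusted p = 0.0628), and all 4 passed under library totals alone (adjusted p = 0.0488, 0.0349, 0.0468 and 0.0409). At low levels, Cox7a1 was 0.10 times the stimulated level (adjusted p = 0.0119), a call lost without Torin 3 or without all libraries of number 4. Cox6b2 was 0.50 times that level (adjusted p = 0.0479). No core subunit of complex I passed (0 of 7, with 2 at an unadjusted p under 0.05 and 0 in DESeq2), and Ndufs7 had 262.2, 405.9 and 251.5 CPM in Torin libraries, against 143.5 to 292.6 CPM in stimulated ones (1.67 times, adjusted p = 0.170, and 0.0477 with pairing by number).

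Torin and stimulated libraries share N4, and both comparisons above share the stimulated libraries, so their changes are not independent. Set directly against naive libraries, Torin libraries were higher in 40 of 94 genes and lower in 5, where 32.2% of all genes passed, 16.4% higher and 15.8% lower. The median log2 change of the nuclear genes was 0.54, against -0.18 over all genes. That of the 13 mitochondrial genes was close to the nuclear one, at 0.53. Of 24 calls in genes named by rule, 6 were lost without all libraries of number 4 and 2 without those of number 2. With library totals alone, 23 genes were higher and 12 lower, the nuclear median was 0.22, against -0.52 over all genes with 33.4% of calls higher instead of 50.9%, and the complex I median was -0.01, against 0.33 with composition scaling. The largest rises over naive libraries were in Uqcrq (log2 1.56, adjusted p = 0.000111), Ndufa12 (1.47, adjusted p = 0.00039), Cox7c (1.35, adjusted p = 0.00285), Ndufc2 (1.29, adjusted p = 0.0075), Atp5e (1.28, adjusted p = 0.000717) and Atp5g1 (1.27, adjusted p = 0.00183). In complex V, 11 of 17 nuclear genes were higher in Torin than in naive libraries, among them all 3 of the c ring, and the calls of Atp5a1, Atp5b, Atp5d, Atp5l and Atp5o were lost under library totals alone. The 5 lower genes were Cox7a1 (log2 -2.74, adjusted p = 0.00265), Cox6b2 (-2.11, adjusted p = 0.000172), Ndufb10 (-0.87, adjusted p = 0.00228), Ndufv3 (-0.75, adjusted p = 0.0207) and Cox7a2l (-0.69, adjusted p = 0.00347). Ndufv3 had 142.7 to 185.2 CPM in Torin and 174.0 to 332.6 CPM in naive libraries, which overlap, and its call was lost without Torin 3, Torin 4 or naive 2. Among mitochondrial genes, mt-Nd1 (log2 0.99, adjusted p = 0.0136) and mt-Nd3 (1.07, adjusted p = 0.0344) were higher in Torin than in naive libraries. Both calls were lost under library totals alone (adjusted p = 0.0559 and 0.0898) and without all libraries of number 4 (adjusted p = 0.0921 and 0.187), and that of mt-Nd3 also without Torin 1, Torin 4, naive 1, naive 3 or naive 4. With pairing by number, mt-Co2, mt-Co3 and mt-Nd4l also passed as higher in edgeR (adjusted p = 0.0283, 0.0346 and 0.0286).

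Transcript usage, the share of each transcript in the counts of its gene, differed between stimulated and naive libraries in 29 of 64 genes of the chain with several measured transcripts (limma, adjusted p under 0.05), where 27.0% of all genes tested did. The largest mean shift of a share was at least 5 percentage points in 9 of the 29. When transcripts needed a mean of at least 5 CPM, usage differed in 11 of 41 genes of the chain (26.8%), where 29.1% of all genes tested did. The count at the lower minimum was 16 without naive 3 and 17 without stimulated 4. Counts of Atp5g1 came mostly from a long transcript, Atp5g1-201 (4715 nt), and a short one, Atp5g1-202 (596 nt). The long one supplied 37.5, 41.4 and 38.3% of the gene's counts in Torin 1, 3 and 4, 10.3 to 17.6% in stimulated and 33.8 to 59.6% in naive libraries, where stimulated libraries stood apart from all others (adjusted p = 0.00206 in stimulated against naive). The short one supplied 57.8 ± 2.2% in Torin, 82.5 ± 2.8% in stimulated and 50.3 ± 10.8% in naive libraries (SD, n = 3, 4 and 4). In Ndufa10, the retained-intron transcript Ndufa10-208 supplied 4.3 ± 0.6% in Torin, 2.2 ± 0.6% in stimulated and 11.5 ± 2.4% in naive libraries (adjusted p = 0.000436). Atp5a1-201 supplied 65.2 ± 20.3% in Torin, 77.5 ± 10.15% in stimulated and 44.0 ± 7.5% in naive libraries (adjusted p = 0.0218), and Torin 4 and stimulated 4 held the highest values of their groups.

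Between Torin and stimulated libraries, usage differed in 0 of the 64 genes by limma at an adjusted p under 0.05, and in 12 at an unadjusted p under 0.05. Of all genes tested, 0.543% differed at the adjusted threshold. With a mean of at least 5 CPM per transcript, 2 of 41 genes of the chain differed, where 1.13% of all genes tested did. Retained-intron transcripts supplied 2.02, 2.08 and 2.21% of the counts of nuclear members in Torin 1, 3 and 4, 1.75, 0.924, 1.10 and 1.02% in stimulated 1 to 4 and 1.78, 1.85, 1.97 and 2.1% in naive 1 to 4. Stimulated libraries held the lowest shares and did not overlap the others, although stimulated 1 (1.75%) lay just below naive 1 (1.78%). The same share over all genes was not computed.

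**Figure D5:**
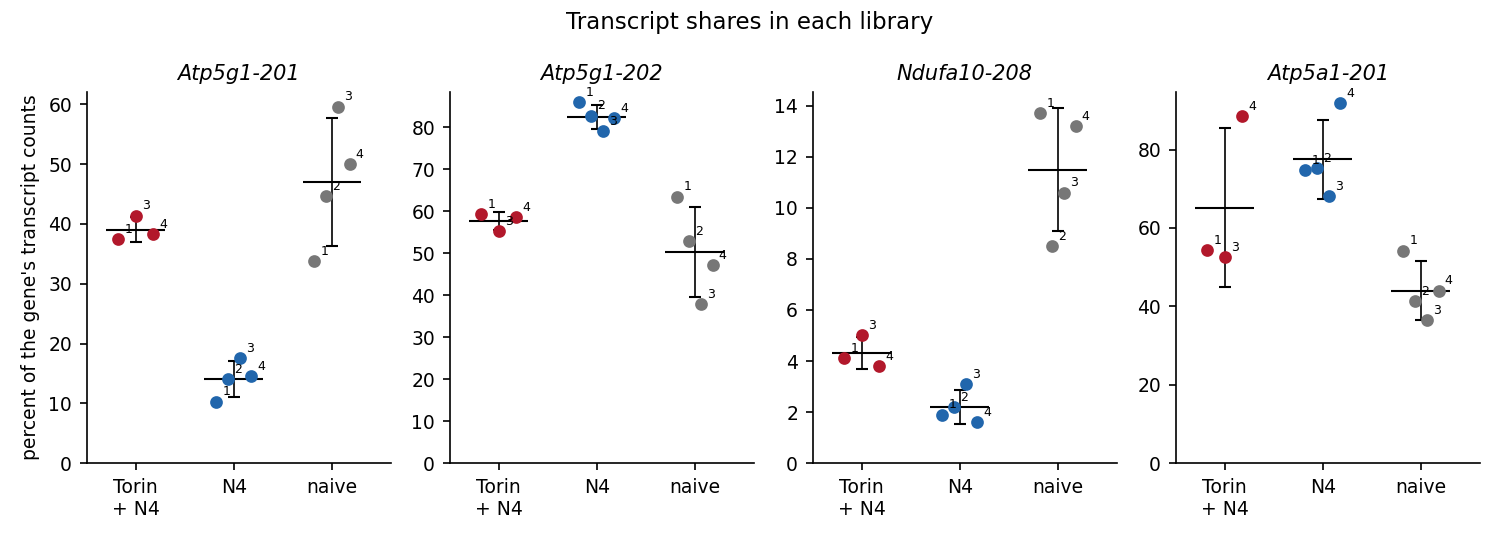
Share of 4 transcripts in the counts of their gene, in percent, in each library, with replicate numbers, lines at group means and bars of 1 SD. Atp5g1-201 lies between 10.3 and 17.6% in stimulated libraries and at or above 33.8% in all others, and Ndufa10-208 is highest in naive libraries.

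Genes that work with the chain were described from separate lists, whose counts stand beside the shares over all genes given above (19.2% higher and 20.2% lower in stimulated against naive libraries, 2.32% and 2.30% in Torin against stimulated, 16.4% and 15.8% in Torin against naive). In stimulated against naive libraries, 24 of 49 assembly factors were higher and 5 were lower, with a median log2 change of 0.54. Sco2, a copper chaperone of complex IV, rose by 2.85 on the log2 scale. Its levels were low, at 6.97 CPM in stimulated against 0.97 CPM in naive libraries. Ndufaf4, a complex I assembly factor, rose by 2.55, to 184.8 CPM in stimulated against 31.6 CPM in naive libraries. Uqcc3 and Ndufaf3, assembly factors of complexes III and I, fell by 2.48 and 2.28. Of 24 genes for electron carriers and ubiquinone synthesis, 14 were higher and 3 were lower. Cycs, cytochrome c, had 1252, 985.3 and 1298 CPM in Torin 1, 3 and 4, 2050, 3084, 3235 and 2509 CPM in stimulated 1 to 4 and 379.6, 467.6, 277.2 and 263.2 CPM in naive 1 to 4. It rose by 2.97 in stimulated over naive libraries (adjusted p = 9.6e-06) and was lower by a log2 change of -1.21 in Torin against stimulated libraries (adjusted p = 0.0218), with the 3 groups apart as for Uqcrq. Pdss1, for the ubiquinone tail, rose by 2.65, and Coq8a and Coq10a fell by 3.46 and 1.55.

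Of 30 genes for the upkeep and expression of mitochondrial DNA, 11 were higher and 4 were lower in stimulated libraries, with a median of 0.17. Slirp, which stabilises mitochondrial mRNAs, rose by 2.81 to 872.2 CPM in stimulated, against 124.8 CPM in naive libraries, and Fastkd3 rose by 2.37. Mss51 and Polg (the mitochondrial DNA polymerase) fell by 1.29 and 1.001. In Torin against stimulated libraries, Slirp (log2 -1.40, adjusted p = 0.0149) and Pnpt1 (-1.60, adjusted p = 0.0332) were lower and so was Ssbp1, which coats single-stranded mitochondrial DNA (-1.02, adjusted p = 0.0075). Twnk, the mitochondrial DNA helicase, was higher (1.18, adjusted p = 0.0311). Among 13 regulators, 5 were higher and 1 (Yy1, -0.62) was lower in stimulated libraries. Myc rose by 3.10, to 256.9 CPM in stimulated against 30.05 CPM in naive libraries, and averaged 432.7 CPM in Torin libraries (log2 0.75 against stimulated, adjusted p = 0.248). Lonp1, a matrix protease, rose by 2.46 in stimulated over naive libraries and was lower in Torin against stimulated libraries (log2 -1.28, adjusted p = 0.0149), as was Esrra (-0.88, adjusted p = 0.0276, and 0.0628 with pairing by number). The calls in Torin against stimulated libraries share the limit given for the chain, since calls over all genes numbered 55 without libraries of number 4 and 1027 with them.

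In Torin against stimulated libraries, 3 of 49 assembly factors were lower and none was higher (Cox16, Cox17 and Uqcc2, log2 -0.81, -0.77 and -0.62), 3 of 24 carrier genes were lower and 1, Coq8a, was higher (log2 2.13, adjusted p = 0.0475). With pairing by number, Cox16, Cox17, Uqcc2 and Coq8a did not pass (adjusted p = 0.0754, 0.074, 0.0643 and 0.104), nor did Coq7, 1 of the 3 lower carrier genes (adjusted p = 0.0886). In Torin against naive libraries, 20 of 49 assembly factors were higher and 3 lower, 11 of 24 carrier genes were higher and 3 lower, and 11 of 30 genes for mitochondrial DNA were higher and 3 lower.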

How the data were processed

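The deposited tables hold the authors' estimated counts per gene and per transcript for 11 libraries, already whole, so nothing was rounded. The submitters' processing notes list mm39, DESeq2 1.30.1, R 4.0.5, StringTie 2.1.0, SAMtools 1.9 and STAR 2.7.1a without roles. Per the labels, cDNA was primed on poly(A) tails with a low-input SMARTer kit. Totals of 241865667 to 405884097 exceed usual read numbers for an unstated reason, so no counting interval was computed and errors are those between libraries. Unused value columns numbered 0.

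Symbols and lengths came from GENCODE M21 (GRCm38), matched by identifier without version (94.1% of genes), and promoters from RefSeq (GRCm38.p6). Members and lists were chosen with earlier results of these data known.

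The gene test was edgeR 4.0.16 (quasi-likelihood, TMM, R 4.3.3) on every library at once with 1 coefficient per group, after filterByExpr at a minimum count of 10, with Benjamini-Hochberg adjustment at 0.05. Errors of log2 changes are standard errors. CPM used TMM-corrected library sizes. Transcript usage was tested with limma 3.58.1 on log2 ratios of transcript to gene CPM (0.5 added), for transcripts of a mean of at least 1 CPM, with Simes p-values per gene. Copies were sought with blastn 2.17.0 (at least 95% identity over at least 50% of the shorter transcript). Scripts were tested on simulated data.

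Named genes were a fixed core per complex, the mitochondrial genes, the tissue-restricted isoforms, the 6 largest rises and falls per comparison, calls against their complex, every call in Torin against stimulated libraries, and the 2 largest rises and falls of each further list. Other genes with values were picked after these were seen. Values of 1 gene of the core are not reported here.

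Same-numbered libraries deviated together from their group means, with correlations of 0.16, 0.23, 0.15 and 0.29 (stimulated and naive) and 0.11, 0.15 and 0.31 (Torin and stimulated). The labels do not explain the numbers, so this pairing comes from the data, and a replicate block was fitted as an alternative. Others were DESeq2 1.42.0, library totals alone, scaling without mitochondrial genes, no filter, a mean of at least 5 CPM, the description prefix, the 2 compared groups alone, and libraries left out singly or by number. Adding pseudogene copies was chosen after seeing the data.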

Additional observations from a re-analysis of the deposited data

Results flagged for a closer look

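In groups of 4, a library was singled out where its gap to the nearest other, divided by the range of the group, exceeded Dixon's 95% critical value. This was looked for in 104 groups of 52 named genes, and chance flags about 1 in 20 such groups. It applied to 4 values. Stimulated 3 was high for Atp5g1 (5444 CPM) and for Cox5b (1868 CPM). Naive 1 was low for Ndufb11 (411.1 CPM). Stimulated 1 was low for mt-Nd4l (36.75 CPM). Stimulated 3 has the smallest composition factor of all libraries (0.727), and its part in these values was not tested.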

How the results depend on the processing

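In stimulated against naive libraries, DESeq2, scaling without mitochondrial genes, no filter, a mean of at least 5 CPM, the description prefix, the 2 groups alone, leaving out number 2 or 4, the replicate block (72 calls) and added copies kept counts within 1.5 times. Library totals alone gave 45 calls, 39 higher and 6 lower, and leaving out each library gave 64 to 71 calls (61 to 68 higher, 3 to 4 lower). Of 29 named calls, 16 held in all these alternatives. Over all 94 genes, library totals alone lost 27 calls and gained 3, and turned the direction of 15 genes, of which 3 had passed (Ndufs3 -0.07, Ndufa8 -0.11 and Atp5c1 -0.06). Among genes named by rule, reversals were in genes that had not passed, and library totals alone gave Cox4i1 -0.30, mt-Nd2 -0.30, mt-Nd4 -0.25, mt-Nd5 -0.026 and mt-Nd6 -0.45. A mean of at least 5 CPM gave mt-Nd6 -0.10. Without number 4, mt-Co1 was 0.035 and mt-Cytb 0.014, without number 2 mt-Cytb was 0.081, and with the 2 groups alone it was 0.051. Leaving out each library gave Sdha -0.312 to 0.019, mt-Cytb -0.094 to 0.119 and mt-Nd6 -0.084 to 0.23.

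In Torin against stimulated libraries, calls numbered 38 with DESeq2 (37 lower), 27 with a mean of at least 5 CPM (26 lower), 9 with no filter (8 lower), 7 with the description prefix (6 lower), 5 without number 2 (4 lower) and 1 without number 4 (0 lower). The replicate block gave 12, with 2 higher and 10 lower, while library totals alone gave 21, the 2 groups alone 15, and scaling without mitochondrial genes or added copies 17. Leaving out each library gave 4 to 25 calls (3 to 24 lower and 1 to 2 higher). The cause was not tested, beyond the fewer libraries that leaving some out implies.

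In Torin against naive libraries, library totals alone gave 23 higher and 12 lower, leaving out each library gave 35 to 52 calls (30 to 47 higher, 4 to 6 lower), and the replicate block gave 51. Here same-numbered libraries correlated at 0.08, 0.13 and 0.28 (numbers 1, 3 and 4), and libraries of different numbers at -0.18 to 0.07. The block was fitted to all libraries at once. The block brought mt-Co2, mt-Co3, mt-Nd4l, Uqcrb, Ndufb5 and Cox6b1 past the threshold as higher (adjusted p = 0.0283, 0.0346, 0.0286, 0.0302, 0.0378 and 0.0263) and Cox6a2 as lower (0.0467), and lost Ndufv3 (0.0541) and, in the carrier list, Coq8b (0.0751).

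Usage calls in stimulated against naive libraries numbered 11 with a mean of at least 5 CPM, 20 with the replicate block and 16 to 26 with each library left out. In Torin against stimulated libraries they numbered 2 with that minimum, 0 with the replicate block and 0 to 1 with each library left out. In the other 2 comparisons, the block changed no call of a gene of the chain beyond those given in the report.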
